A study of Homo sapiens with 6 samples.

Results

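A set of 9 genes that act in apoptosis were followed in ME-1 cells, a line derived from human acute myeloid leukaemia with the inversion inv(16): BBC3, PMAIP1, BCL2L11, BIK, BCL2, CASP9, XAF1, TNFRSF10A and AEN. They were taken by gene symbol from the authors' deposited table of 6339 rows, and each of the 9 had 1 row of its own and passed the filter on low values. The cells were kept for 6 h either with AI-10-49 at 1 µM or with DMSO, the solvent, and each group holds 3 libraries from independent experiments. The compound AI-10-49 targets CBFβ-SMMHC, the fusion protein made from inv(16), and keeps it from binding the transcription factor RUNX1. All libraries come from this 1 cell line, which carries the fusion in both groups, so no cells without the fusion were compared. The values are FPKM, counts of fragments corrected for transcript length and library size. Levels of different genes can thus be set side by side, within the limit of AI-10-49 replicate 2 given below.

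Apoptosis through the mitochondrion is governed by the BCL2 family. Guardian proteins such as BCL2 hold the pore formers BAX and BAK in check, and BH3-only proteins such as PUMA, NOXA, BIM and BIK bind the guardians and release that check. Cytochrome c then leaves the mitochondrion and assembles with APAF1 into the apoptosome, which activates caspase-9, while inhibitor of apoptosis (IAP) proteins restrain the caspases further down. A separate route starts at the cell surface, where ligands such as TRAIL engage death receptors. Myeloid leukaemia cells often depend on BCL2 or MCL1 for survival.

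The 9 genes moved in opposite directions within the same pathway. BBC3, XAF1, PMAIP1 and CASP9 were higher with AI-10-49, by 4.52-fold, 3.44-fold, 2.75-fold and 1.68-fold. TNFRSF10A, AEN, BCL2, BCL2L11 and BIK were lower, by 2.79-fold, 2.69-fold, 2.26-fold, 2.104-fold and 1.84-fold. All 9 passed the threshold (limma, adjusted p below 0.05), as did 95.3% of the 6230 rows tested, 46.2% higher and 49.1% lower. The libraries of the groups did not overlap in any of the 9, and they did not overlap in 96.2% of all tested rows (45.1% with AI-10-49 higher and 51.2% with it lower). The table holds few rows without a difference: 4 of the tested rows had a log2 fold change of less than 0.2 in size. Passing the threshold therefore does not set these genes apart from the rest of the table, and the size of the change is given instead. The median size of the log2 fold change was 1.30 in the 9 genes and 0.56 in all tested rows, and the median with its sign was -0.86 and -0.28. The 9 genes were chosen with earlier results of these data known, so their larger median size does not set them apart either. The median size was 0.70 in 25 further cell death genes with a tested row. Fold changes on the log2 scale are of FPKM + 1, which understates the change of low values. For each of the 9 genes, permuting the 6 libraries between the groups (exact, two-sided) gave p = 0.1, the smallest value this design allows.

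**Figure D1:**
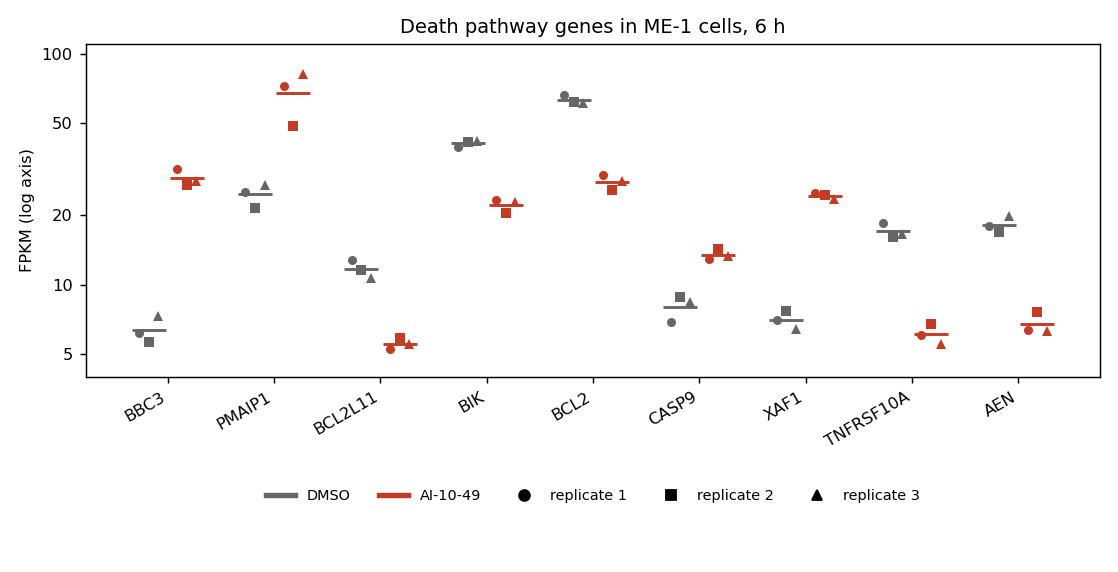
Levels of the 9 genes (FPKM, log axis) in each library, shown as points with a symbol for each replicate number, and the mean of each group as a line; grey is DMSO and red is AI-10-49. PMAIP1 (24.6 to 67.6 FPKM) and BBC3 (6.39 to 28.9 FPKM) rise above BCL2 (63.0 to 27.8 FPKM) or reach it, and no gene shows overlap between the groups.

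AI-10-49 replicate 2 differed from the other libraries of its group in a way that depended on level. Among rows of at least 100 FPKM in replicates 1 and 3, its median ratio to their mean was 0.50 and it was lower in all 294 of 294 rows. Between 30 and 100 FPKM the median ratio was 0.81, between 10 and 30 FPKM it was 1.00, and below 10 FPKM it was 1.11. Among the 9 genes this ratio ran from 0.63 for PMAIP1 to 1.20 for AEN. Of 14 marker genes of myeloid leukaemia cells, 9 had a tested row, and CEBPA (128 ± 10.99 FPKM) and KIT (82.8 ± 2.71 FPKM, SD, n = 3, DMSO) were among them. Others of the 9 were low with DMSO: CD33 at 8.41, ELANE at 2.05 and PRTN3 at 1.06 FPKM. The deposited rows are a selected set, so a marker without a row cannot be called absent from the cells. Markers of other lineages had few rows, with 2 of 5 for B cells, 2 of 6 for T and NK cells, 1 of 6 for red cells and none of 8 for fibroblasts and epithelium; of these, CD3D stood at 32.2 and CD79B at 24.5 FPKM with DMSO. The summed level of the 9 myeloid markers was 439 to 485 FPKM with DMSO and 211 to 299 FPKM with AI-10-49. The summed levels of the B, T and erythroid markers were lower with AI-10-49, at 8.72 to 10.6 against 24.8 to 29.96 FPKM, 16.9 to 17.2 against 32.6 to 34.3 FPKM, and 3.28 to 4.004 against 8.76 to 9.60 FPKM. Their part in the changes below was not tested. The sums for B cells and for T and NK cells hold 2 genes each, and the erythroid value is KLF1 alone. All libraries come from 1 cell line, so these few rows do not show that cells of other lineages were present. In bulk RNA, fewer cells with a marker and less RNA per cell cannot be told apart.

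Among the BH3-only genes, BBC3 changed most. It encodes PUMA, which binds all the guardians. BBC3 stood at 6.20, 5.64 and 7.34 FPKM in the DMSO libraries and at 31.6, 27.0 and 28.1 FPKM in the AI-10-49 libraries. The lowest AI-10-49 value was 3.68 times the highest DMSO value, the widest gap among the 9 genes. The log2 fold change was 2.02 ± 0.09 (SE, 95% confidence interval 1.83 to 2.21, limma adjusted p = 6.55e-10). Of all tested rows, 0.754% rose further than BBC3. Its level moved from above 25.4% of tested rows with DMSO to above 72.4% with AI-10-49.

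PMAIP1 encodes NOXA, which binds MCL1 and BCL2A1 rather than BCL2. It stood at 25.2, 21.4 and 27.1 FPKM with DMSO and at 72.6, 48.6 and 81.7 FPKM with AI-10-49, where replicate 2 was the lowest. It was the most abundant of the 9 genes with AI-10-49. The log2 fold change was 1.40 ± 0.16 (SE, 95% confidence interval 1.06 to 1.74, limma adjusted p = 3.20e-06), the widest interval of the 9. Without AI-10-49 replicate 2 the rise was 3.14-fold and the log2 fold change 1.62. The coefficient of variation of PMAIP1 was 25.3% with AI-10-49 and 11.7% with DMSO.

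The promoters of BBC3 and PMAIP1 are shown because they hold matches to motifs that were searched. They come from RefSeq (GRCh38.p14), in which 7 of the 9 genes matched with 9 start sites, and BIK and TNFRSF10A have no entry. Each stretch runs from 250 bases before the start to 20 after it, with matches in capitals. A set of 6 motifs was searched on both strands: CACGTG (the E-box of MYC and MAX), TGTGGT and TGCGGT (RUNX), TGACGT (CREB and ATF), TGATGNAA (joint CEBP and ATF) and TGANTCA (AP-1). BBC3 lies on the minus strand at chr19:47232648-47232917 and PMAIP1 on the plus strand at chr18:59899746-59900015.
BBC3: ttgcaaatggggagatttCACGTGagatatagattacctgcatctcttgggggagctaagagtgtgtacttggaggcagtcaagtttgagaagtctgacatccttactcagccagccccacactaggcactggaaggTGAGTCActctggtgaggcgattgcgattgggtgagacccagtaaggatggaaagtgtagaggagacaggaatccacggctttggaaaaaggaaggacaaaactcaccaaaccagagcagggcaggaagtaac
PMAIP1: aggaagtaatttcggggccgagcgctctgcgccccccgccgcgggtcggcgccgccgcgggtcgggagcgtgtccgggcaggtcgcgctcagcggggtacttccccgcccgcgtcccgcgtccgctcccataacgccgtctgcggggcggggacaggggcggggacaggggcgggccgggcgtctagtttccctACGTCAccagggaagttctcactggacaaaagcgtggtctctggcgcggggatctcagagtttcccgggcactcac
In BBC3 the capitals mark CACGTG, 232 bases before the start, and a match to TGANTCA, 113 bases before it. In PMAIP1 they mark ACGTCA, the reverse complement of TGACGT, 56 bases before the start. Of 35116 promoter windows of 300 bases, 7.26% hold CACGTG, 7.71% TGANTCA and 7.98% TGACGT. These matches are descriptions of letters and do not show that a factor was bound.

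BCL2L11 and BIK fell. BCL2L11 encodes BIM, a strong killer that binds all the guardians, and it stood at 12.8, 11.6 and 10.7 FPKM with DMSO and at 5.27, 5.86 and 5.56 FPKM with AI-10-49. Its log2 fold change was -0.95 ± 0.08 (SE, limma adjusted p = 1.67e-07). In GENCODE 29, 11.9% of the exon bases of BCL2L11 lie opposite exons of the noncoding gene MIR4435-2HG. The sources used here do not say whether counting used the strand, so reads from such overlaps cannot be told apart. BIK, which encodes a BH3-only protein of the endoplasmic reticulum, was the second most abundant of the 9 genes with DMSO. It stood at 39.4, 41.2 and 41.9 FPKM with DMSO and at 23.3, 20.4 and 22.9 FPKM with AI-10-49, a log2 fold change of -0.86 ± 0.08 (SE, limma adjusted p = 3.44e-07). These are the smallest falls among the 5 lower genes, and 9.47% and 12.7% of tested rows fell further than BCL2L11 and BIK.

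The make-up of the mRNA of 4 BH3-only genes changed. BIK supplied 47.1% to 51.6% of the summed FPKM of the 4 genes BBC3, PMAIP1, BCL2L11 and BIK in the DMSO libraries and 16.5% to 20.02% in the AI-10-49 libraries. PMAIP1 supplied 26.8% to 31.1% with DMSO and 47.7% to 59.1% with AI-10-49. The share of BBC3 went from 7.06% to 8.44% up to 20.4% to 26.5%, and that of BCL2L11 from 12.2% to 15.3% down to 3.97% to 5.76%. The sum itself was 83.5 ± 3.55 FPKM with DMSO and 124 ± 19.6 FPKM with AI-10-49 (SD, n = 3), or 1.49-fold higher, with no overlap between the groups. BID and BMF are not in this sum or in the shares. With them the sum was 116.5, 111.5 and 123.4 FPKM with DMSO and 156.8, 128.5 and 163.0 FPKM with AI-10-49. The lowest AI-10-49 sum was that of replicate 2, which read high levels lower. No test was run on these sums or on the shares.

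BCL2, the guardian that gives the family its name, was the most abundant of the 9 genes with DMSO, at 66.2, 61.8 and 61.0 FPKM. With AI-10-49 it stood at 29.7, 25.7 and 28.0 FPKM, and its highest value there was below its lowest value with DMSO. The log2 fold change was -1.15 ± 0.09 (SE, 95% confidence interval -1.34 to -0.96, limma adjusted p = 1.01e-07), and 5.33% of tested rows fell further. Its promoter is printed because it holds a match to a RUNX motif. Whether RUNX1 was bound there, or has a part in the fall of BCL2, was not tested. The stretch lies on the minus strand at chr18:63319750-63320019, from 250 bases before the start to 20 after it.
BCL2: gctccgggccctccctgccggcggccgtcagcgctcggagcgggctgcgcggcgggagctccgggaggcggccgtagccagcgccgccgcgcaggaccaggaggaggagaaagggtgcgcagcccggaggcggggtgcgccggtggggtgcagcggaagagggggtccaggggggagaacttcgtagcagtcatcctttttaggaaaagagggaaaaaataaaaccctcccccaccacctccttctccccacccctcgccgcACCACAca
The capitals mark ACCACA, the reverse complement of TGTGGT, 12 bases after the start. TGTGGT was found in 13.1% of all promoter windows, and among the 9 start sites of the matched genes also at the second start of XAF1, a gene that rose. TGCGGT, present in 7.29% of all windows, and TGATGNAA, present in 3.62%, were in none of these 9.

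Set against BCL2 in the same library, the BH3-only genes parted into those that gained on it and 1 that kept pace. The ratio of BBC3 to BCL2 was 0.094, 0.091 and 0.120 with DMSO and 1.06, 1.05 and 1.00 with AI-10-49, so both mRNAs reached about the same level. The ratio of PMAIP1 to BCL2 rose from 0.39 ± 0.05 to 2.42 ± 0.51 (SD, n = 3). It was 1.89 in AI-10-49 replicate 2, which read high levels lower, and 2.45 and 2.92 in replicates 1 and 3. BIK, although lower itself, went from 0.65 ± 0.05 to 0.80 ± 0.02 of BCL2, without overlap. BCL2L11 stood at 0.194, 0.188 and 0.175 of BCL2 with DMSO and at 0.177, 0.228 and 0.198 with AI-10-49, so its ratios overlapped between the groups. The ratios are descriptions and carry no test.

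**Figure D2:**
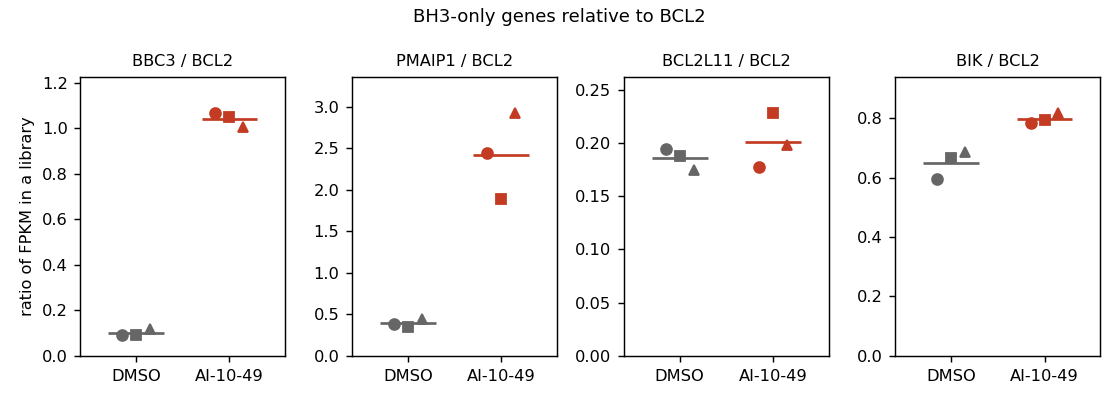
Ratio of the FPKM of BBC3, PMAIP1, BCL2L11 and BIK to that of BCL2 in the same library (vertical axes from 0, each with its own scale), grey for DMSO and red for AI-10-49, with group means as lines and a symbol for each replicate number as in the plot of FPKM. The ratio of BBC3 goes from 0.10 to 1.04 in the mean, and that of BCL2L11 (0.19 and 0.20) overlaps between the groups.

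CASP9 encodes the initiator caspase that the apoptosome activates. It stood at 6.90, 8.84 and 8.38 FPKM with DMSO and at 12.9, 14.3 and 13.3 FPKM with AI-10-49. The rise was the smallest change among the 9 genes, with a log2 fold change of 0.69 ± 0.08 (SE, 95% confidence interval 0.50 to 0.87, limma adjusted p = 6.74e-06), and 35.5% of tested rows changed by more in either direction. Of the exon bases of CASP9, 2.30% lie opposite exons of CELA2B.

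XAF1 encodes a protein that binds the caspase inhibitor XIAP and is induced by interferon in many cells. It stood at 7.07, 7.67 and 6.45 FPKM with DMSO and at 24.9, 24.4 and 23.6 FPKM with AI-10-49, the tightest treated group of the 9 (coefficient of variation 2.77%). The log2 fold change was 1.65 ± 0.07 (SE, 95% confidence interval 1.50 to 1.80, limma adjusted p = 5.15e-10), and 1.33% of tested rows rose further. In GENCODE 29, 69.9% of the exon bases of XAF1 lie opposite those of PRAL, so this value may hold reads of either gene. Other interferon-stimulated genes moved in both directions. Of 29 listed besides XAF1, 14 had a tested row, of which 6 rose and 8 fell, with a median log2 fold change of -0.40 against -0.28 over all tested rows. Those counts are near the shares over all tested rows, 46.2% higher and 49.1% lower. Whether interferon plays a part in the rise of XAF1 was not tested. Among those of largest change, ISG20 (1.75), the RNA sensor gene IFIH1 (1.20), IFIT2 (1.07) and IRF7 (0.91) rose. IFI6 (-1.01) fell, and each value is a log2 fold change.

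TNFRSF10A encodes TRAIL receptor 1, a death receptor of the cell surface. It stood at 18.5, 16.1 and 16.5 FPKM with DMSO and at 6.04, 6.77 and 5.53 FPKM with AI-10-49. It fell furthest of the 9 genes, with a log2 fold change of -1.34 ± 0.08 (SE, 95% confidence interval -1.52 to -1.17, limma adjusted p = 9.98e-09), and 3.16% of tested rows fell further. Exons of TNFRSF10A-AS1 lie opposite 8.25% of its exon bases. TNFRSF10D, which encodes a TRAIL decoy receptor without a working death domain, was 1.48-fold higher (12.02 ± 0.76 against 17.8 ± 0.05 FPKM, SD over 3 libraries) and rose by 0.53 on the log2 scale. These receptor genes thus stood in reverse order, with TNFRSF10A above TNFRSF10D in every DMSO library and below it in every AI-10-49 library. The other listed TRAIL receptor genes, TNFRSF10B and TNFRSF10C, were not analysed here.

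AEN encodes apoptosis enhancing nuclease, an exonuclease. It stood at 17.9, 16.8 and 19.8 FPKM with DMSO and at 6.38, 7.61 and 6.33 FPKM with AI-10-49, a log2 fold change of -1.30 ± 0.08 (SE, 95% confidence interval -1.48 to -1.13, limma adjusted p = 1.65e-08). It went the opposite way from BBC3 and PMAIP1. Its promoter is shown because, like that of BBC3, it holds the E-box CACGTG (in capitals), here 8 bases after the start, although the genes moved in opposite directions. The stretch lies on the plus strand at chr15:88621090-88621359.
AEN: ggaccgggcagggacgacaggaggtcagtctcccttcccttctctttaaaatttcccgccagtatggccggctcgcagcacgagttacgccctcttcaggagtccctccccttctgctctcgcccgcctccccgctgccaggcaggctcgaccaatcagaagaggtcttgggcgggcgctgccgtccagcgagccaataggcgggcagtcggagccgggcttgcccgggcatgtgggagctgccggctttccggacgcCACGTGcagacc
CACGTG was in 2 of the 9 windows of the matched genes, those of BBC3 and AEN.

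The order of levels among the 9 genes was largely rearranged. With DMSO it ran BCL2, BIK, PMAIP1, AEN, TNFRSF10A, BCL2L11, CASP9, XAF1 and BBC3, from a mean of 63.0 to 6.39 FPKM. Neighbours whose libraries overlapped were AEN with TNFRSF10A, CASP9 with XAF1, and XAF1 with BBC3. With AI-10-49 it ran PMAIP1, BBC3, BCL2, XAF1, BIK, CASP9, AEN, TNFRSF10A and BCL2L11, from 67.6 to 5.56 FPKM. There BBC3 overlapped with BCL2, AEN with TNFRSF10A, and TNFRSF10A with BCL2L11. BBC3 thus moved from the last place to the second. The AI-10-49 means include replicate 2, which read high levels lower than the other libraries of its group.

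**Figure D3:**
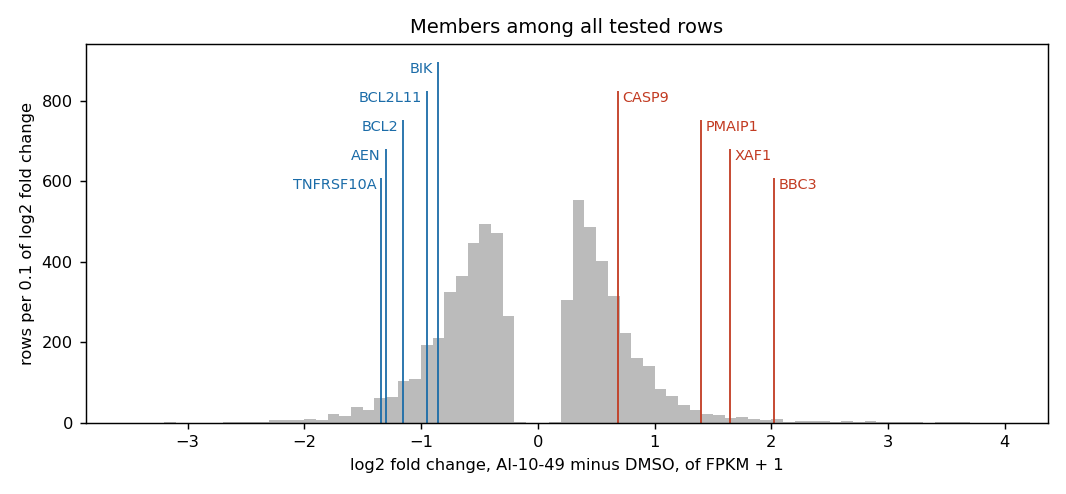
Number of tested rows per 0.1 of log2 fold change (grey bars) with the 9 genes marked by lines, red for those higher and blue for those lower with AI-10-49. BBC3 (2.02) lies far out on the right and TNFRSF10A (-1.34) on the left, while CASP9 (0.69) lies among many other rows; 4 rows fall within 0.2 of zero.

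Around these genes, 68 further members of 7 lists of the cell death machinery were looked up, and 25 had a tested row of their own. Of these, 14 rose, 10 fell and 1 did not pass, with a median log2 fold change of 0.30 against -0.28 over all tested rows. Of all tested rows, 46.2% rose and 49.1% fell. Without AI-10-49 replicate 2 the counts were again 14, 10 and 1, with a median of 0.41. Of 8 BH3-only genes, 6 had a row, of which 3 rose and 3 fell (median log2 fold change -0.10). The counts by list, here and below, include those of the 9 genes that are in the list, here 4 of the 6. BMF rose by 0.58 on the log2 scale (6.15 ± 0.24 FPKM with DMSO, 9.74 ± 0.69 FPKM with AI-10-49), and BID, which links death receptors to the mitochondrion, fell from 27.5 ± 2.71 to 15.4 ± 0.96 FPKM (-0.79). The pore formers BAX, BAK1 and BOK and the guardians BCL2L1, MCL1 and BCL2L10 were not analysed here. BCL2A1, a guardian that NOXA binds, rose from 4.08 ± 1.26 to 11.7 ± 0.29 FPKM (1.34), while BCL2 fell. With AI-10-49 the level of BCL2 (27.8 FPKM) was still above that of BCL2A1. BNIP1 (1.22), BNIP3L (0.99), a mitophagy receptor, and BCL2L13 (0.70), all 3 of 9 listed BCL2 relatives with a row, rose.

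Downstream of the mitochondrion, 10 of 20 listed caspase and apoptosome genes had a tested row, and 4 rose and 6 fell (median -0.40). Over all tested rows the shares were 46.2% and 49.1% (median -0.28). The initiator gene CASP10 (0.60) and DIABLO (0.29), whose product opposes IAP proteins, were among those that rose with CASP9. CASP2 (-0.95), ENDOG (-0.90), a mitochondrial nuclease gene, DFFB (-0.78) and DFFA (-0.43), the caspase-activated DNase and its inhibitor, CASP6 (-0.41) and CYCS (-0.40), which encodes cytochrome c, fell. The groups overlapped in CYCS and DIABLO. CYCS was at -0.16 (adjusted p = 0.0826) without AI-10-49 replicate 2, at -0.39 (adjusted p = 0.0651) without DMSO replicate 1 and at -0.38 (adjusted p = 0.0787) without DMSO replicate 3. DIABLO was at 0.25 (adjusted p = 0.0543) without DMSO replicate 2, at 0.22 (adjusted p = 0.0699) without AI-10-49 replicate 1 and at 0.24 (adjusted p = 0.0514) without AI-10-49 replicate 3 (limma, each).

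Of 10 genes of IAP proteins and their partners, 6 had a row, XAF1 and DIABLO among them, and 5 rose and 1 fell (median 0.69). DIABLO here and CASP10 below are also counted in the caspase list. Beside this, 46.2% of all tested rows rose and 49.1% fell (median -0.28). BIRC3, which encodes cIAP2, rose more than BBC3, by 2.84 on the log2 scale, from 2.74 ± 0.24 FPKM with DMSO to 25.8 ± 1.54 FPKM (SD over 3 libraries). BIRC2 (1.08), which encodes cIAP1, and NAIP (0.30) rose, and BIRC5 (-0.83), the survivin gene active in dividing cells, fell. Of 24 genes of death receptors and their signalling, 8 had a row, and 4 rose, 3 fell and 1 did not pass (median 0.06). TNFRSF1B (1.06), which encodes TNF receptor 2, and CRADD (0.53), an adaptor of caspase-2, rose beside TNFRSF10D and CASP10. TNFRSF21 (-0.77) and DAXX (-0.41) fell with TNFRSF10A. TNFRSF1A, which encodes TNF receptor 1 and was the most abundant of these at 160 FPKM with DMSO, did not pass (-0.50 ± 0.31 SE, limma adjusted p = 0.134). Without AI-10-49 replicate 2 it was at -0.21 and passed (limma adjusted p = 0.012), the 1 of 15 alternatives in processing in which it did. Under quantile normalization TNFRSF1A was at 0.08, with the sign reversed, and did not pass. Its values over the alternatives ran from -0.65 to 0.08, so its direction depended on the processing.

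**Figure D4:**
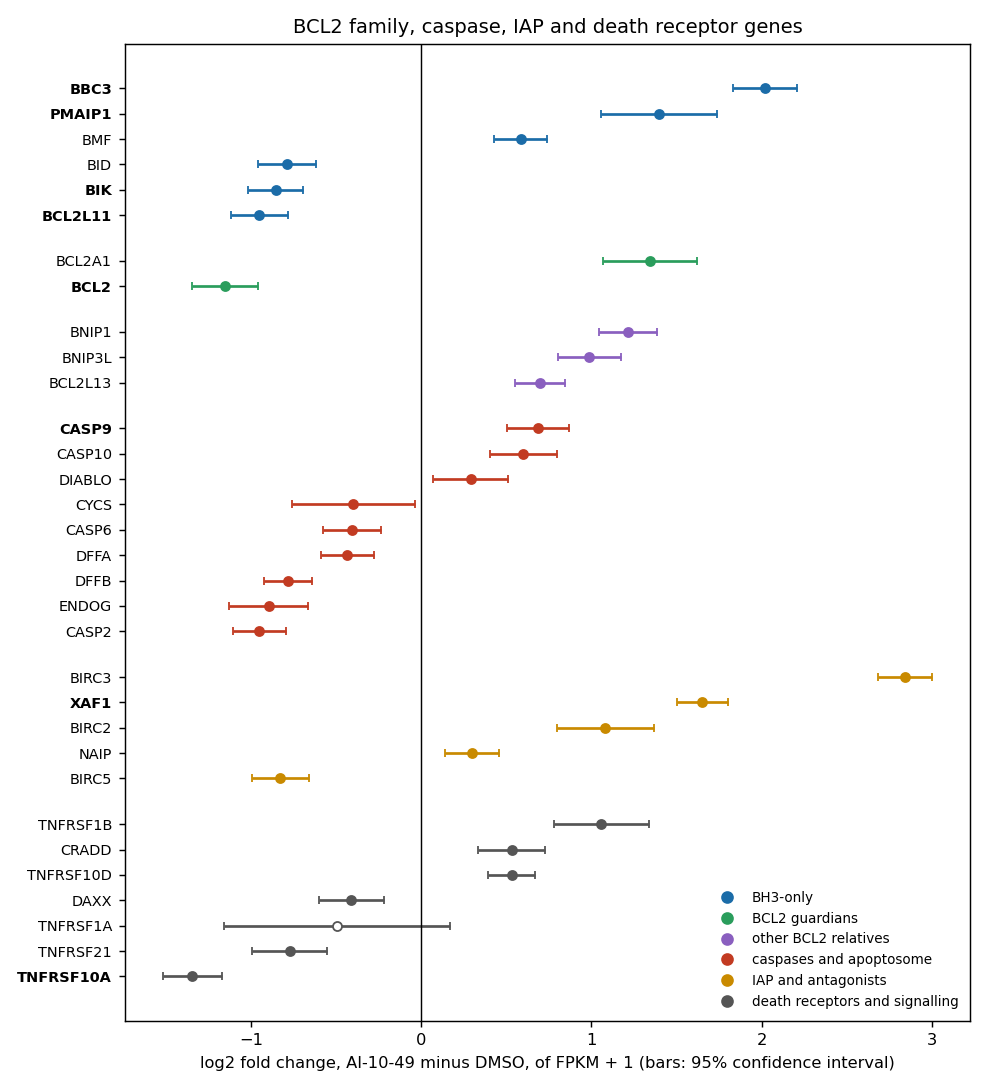
Log2 fold change of FPKM + 1 (horizontal axis, points) with 95% confidence intervals (bars) for 32 of the 33 genes of the cell death lists that had a tested row, coloured by list, with 8 of the 9 genes in bold (AEN is in none of these lists) and an open point where the threshold was not passed. BIRC3 (2.84) and BBC3 (2.02) lie farthest right and TNFRSF10A (-1.34) farthest left, and every list with more than 3 genes has members on both sides.

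Of 17 regulators and stress genes known to act on or with BH3-only genes, 13 had a tested row, 10 rose and 3 fell, with a median of 1.40. Over all tested rows 46.2% rose and 49.1% fell, with a median of -0.28. The list was chosen with earlier results of these data known, and a part of these genes in the changes above was not tested. ATF3 (3.55), JUN (3.49), CHAC1 (3.02), DDIT3 (2.81), which encodes CHOP, and TRIB3 (2.61) rose and MYC (-3.16) fell.

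For each of the 9 genes, the tested rows with the most similar profile were found by the root mean square difference over the 6 libraries of log2 values, taken relative to the DMSO mean. BBC3 was nearest to CREM (0.090) and TARP (0.108). PMAIP1 was nearest to SMOX (0.105) and CEBPB (0.110), which also read lower in AI-10-49 replicate 2, and XAF1 to PER1 (0.074) and HAVCR2 (0.084). BCL2 was nearest to LARP1 (0.036) and UBASH3B (0.038), BIK to ENG (0.029) and LMO4 (0.029), and BCL2L11 to MAP3K5 (0.042) and DCAF16 (0.048). TNFRSF10A was nearest to P2RY2 (0.059) and MTAP (0.063), AEN to SLC39A14 (0.053) and EHD4 (0.057), and CASP9 to NDST3 (0.055) and AVPI1 (0.064). With 3 libraries a group, such nearness mostly reflects an equal size of change in log2(FPKM + 1). For low rows such as NDST3 (mean 0.67 FPKM with DMSO and 1.63 FPKM with AI-10-49) this is not an equal fold change of FPKM.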

How the data were processed

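Libraries of total RNA from ME-1 cells (TruSeq kit) were sequenced from both ends, per the labels' protocols. The build hg19 and the tools Cuffdiff, Cufflinks 2.2.0 and Bowtie2 2.1.0 are named in the submitters' processing notes. The authors deposited FPKM for a selected set of 6339 rows, in 1 column per library. The sources used here do not state how rows were selected, and the p-values cannot be read as those of a full transcriptome. Depth is unknown: in 288 low rows, ratios between DMSO libraries lay within 0.5% of small whole-number ratios in 14.6% to 18.4% at the best scaling (median over scalings 7.99% to 8.68%), so reads were not recovered.

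Log2(FPKM + 1) was analysed with limma 3.58.1 in R 4.3.3 (mean-variance trend, two-sided, Benjamini-Hochberg over all tested rows, threshold 0.05), as AI-10-49 minus DMSO. The filter asked for a group mean of 1 FPKM or more, which kept 6230 rows and left out 109. The fit was tested on simulated data. Rows that name several genes (198) and labels on 2 rows (23) were not counted as list members. Permutation tests used SciPy 1.17.1, and plots Matplotlib 3.10.9.

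The 9 genes, the gene lists and the motifs were chosen with earlier results of these data known. Named were the 9 genes, all tested members of the cell death lists, up to 6 genes of largest change in each other list and the 2 nearest profiles of each gene. Alternatives were quantile normalization, median scaling, a replicate block, no trend, no filter, a 5 FPKM filter, pseudocounts of 0.1 and 0.5, each library left out, and quantile normalization without AI-10-49 replicate 2. Promoters and exon overlaps come from GRCh38 annotations (RefSeq, GENCODE 29), not the authors' build, and use no coordinate of the table. One further gene list and some list genes are not reported here.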

Additional observations from a re-analysis of the deposited data

How the results depend on the processing

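The 9 genes kept their direction and passed the threshold in all 135 values from 15 alternatives (highest limma adjusted p = 0.000447, for CASP9 without the trend). Their log2 fold changes, over all alternatives, ran from 1.95 to 2.16 for BBC3, 1.25 to 1.73 for PMAIP1, 1.59 to 1.77 for XAF1, 0.59 to 0.75 for CASP9, -1.06 to -0.89 for BCL2L11, -0.89 to -0.80 for BIK, -1.20 to -1.01 for BCL2, -1.47 to -1.28 for TNFRSF10A and -1.41 to -1.24 for AEN. Quantile normalization moved the median of all tested rows from -0.28 to -0.06, and BCL2 from -1.15 to -1.01 and PMAIP1 from 1.40 to 1.58. Between 5730 and 6067 rows passed with single libraries left out and 5018 (5 FPKM filter, fewer rows tested) to 6037 otherwise. Counts of called list members stayed within 1.5 times their value. Of 999 values for 67 other list genes, 9 lost the call (CYCS and DIABLO), 9 gained it (GADD45A, CCNG1, TNFRSF1A and C12orf5) and none that was called reversed.

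The replicate block gave 6015 rows and changed no call among the 9 genes (BBC3 stayed at 2.02); of the other list genes, GADD45A passed under it (0.26, limma adjusted p = 0.0392). Deviations of same-numbered libraries correlated at -0.15, 0.147 and 0.247 across rows, and those of libraries with different numbers at -0.254 to 0.205. These values do not settle whether the numbers are pairs. The labels do not state that they pair libraries, so they were not treated as pairs. With depth unknown, only the spread between libraries shows how precise low values are.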

Other observations

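Some listed genes stand in the table on rows that name several genes, so their values cannot be given to 1 gene. The row of PIDD and SLC25A22 was lower with AI-10-49, at 15.7 ± 0.86 against 35.3 ± 2.38 FPKM (SD over 3 libraries), and its log2 fold change was -1.12 ± 0.07 (SE, limma adjusted p = 2.33e-08). PIDD forms a complex with the adaptor encoded by CRADD and with caspase-2, and of those genes CRADD rose and CASP2 fell. The row of BCL2L2, BCL2L2-PABPN1 and PABPN1, which includes a BCL2 guardian, fell from 101 ± 2.19 to 57.7 ± 7.51 FPKM (-0.80 ± 0.15 SE, limma adjusted p = 0.000218). The row of PLEKHG5 and TNFRSF25 (death receptor 3) fell from 2.103 ± 0.41 to 1.03 ± 0.31 FPKM (-0.62 ± 0.13 SE, limma adjusted p = 0.000684).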
